A study of Mus musculus with 7 samples.

Results

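Interferon-stimulated genes, with the receptors and transcription factors that control them, were followed in lung alveolar macrophages with and without Suz12. SUZ12 is a subunit of PRC2, the complex that methylates histone H3 and silences developmental genes. The 42 members were taken as a named list out of 27179 genes in the count table, and each was found by its Entrez number. The list used no cutoff on their measured values, but it was chosen with earlier results of these data known. Recipients were C57BL/6-Ly5.1 mice that had received lethal irradiation. Of the marrow they were given, 90% came from Ly5.2 donors, either wild type or carrying the Suz12 conditional knockout (Suz12 cKO), and 10% came in both groups from wild type Ly5.1 donors. Libraries numbered 4 for wild type and 3 for Suz12 cKO, made from polyadenylated RNA of sorted macrophages and called biological replicates in the design text. The sources used here do not give the Cre line, the exons deleted, the age and sex of the mice, or whether macrophages of the recipient or of the 10% competitor marrow were gated out.

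Total counts were 48104653 to 79281431 per wild type library and 63923829 to 70473901 per knockout library. Levels are given in CPM, the share of a library's counts scaled to a fixed total after TMM correction. Suz12 was at 22.1, 23.6 and 15.1 CPM in the knockout libraries, while wild type had 56.5, 56.3, 73.9 and 68.9 CPM, so the groups did not overlap (log2 fold change -1.65, SE 0.18, edgeR adjusted p = 0.00134). All 10 markers of alveolar macrophages were detected, among them Chil3 at 15811 to 20364 CPM. Red cell markers summed to 150 and 113 CPM in knockout replicates 1 and 2 and 41.5 CPM in wild type replicate 2, and to between 1.92 and 4.02 CPM in the other 4 libraries. These 3 libraries are referred to as high in tissue RNA, a division set on haemoglobin RNA alone and chosen with the values known. Endothelial markers (5 genes) were also highest in these 3. The sums of alveolar epithelial markers (7 genes) did not follow the division. They were 86.1 and 71.5 CPM in knockout replicates 1 and 2, and 169, 181 and 174 CPM in wild type replicates 1, 3 and 4. Markers of monocytes and interstitial macrophages (10 genes, 5 called higher and 0 lower) summed to 5998 to 7551 CPM in the knockout and 2175 to 3645 CPM in wild type. Neutrophil markers (9 genes, 4 called higher and 0 lower) summed to 119 to 177 against 56.4 to 66.9 CPM, and the defining genes Ly6g and Camp had no count. Both lists, like that of alveolar macrophages, moved with genotype, and their part in the differences given here was not tested. In RNA from sorted cells, fewer cells of a type and less RNA per cell cannot be told apart.

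Interferons are secreted proteins that put cells into an antiviral state. Type I interferons bind a receptor made of IFNAR1 and IFNAR2 and activate a complex that includes STAT2 and IRF9 and binds the interferon-stimulated response element (ISRE). Interferon gamma, the type II interferon, binds IFNGR1 with IFNGR2, and its signal reaches genes through the gamma-activated site (GAS). Alveolar macrophages are known as a source of type I interferon in viral infection of the lung.

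All 42 members passed the filter on low counts, 1 was called higher (Mx1) and 1 lower (Ifngr1) in the knockout at an adjusted p under 0.05, and 40 were not called. That is 4.76% of the members, against 10.3% of the 14436 genes tested, of which 6.28% were called higher and 4.02% lower. DESeq2 called the same 2 members, against 15.5% of all genes tested. The median log2 fold change was 0.13 over the members and 0.00366 over all genes tested. Above 0 were 28 of 42 members and 7278 of 14436 genes tested. With 1 library left out, the member median ran from 0.027 without knockout replicate 3 to 0.24 without wild type replicate 3. Members above 0 numbered 23 and 34 in these fits. Without wild type replicate 2 the member median was 0.039, with 23 members above 0. An unadjusted p under 0.05 was found for 5 members, against 24.5% of all genes tested. Knockout and wild type ranges did not overlap for 4 members (9.52%), against 25.5% of all genes tested. The knockout was above for Mx1, Mx2 and Rsad2 (14.1% of all genes tested) and below for Ifngr1 (11.5%). Estimates were less precise for the members than for most genes, with a median SE of 0.32 against 0.20 on the log2 scale. The plot of fold changes by role shows both called members and the width of the errors.

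**Figure D1:**
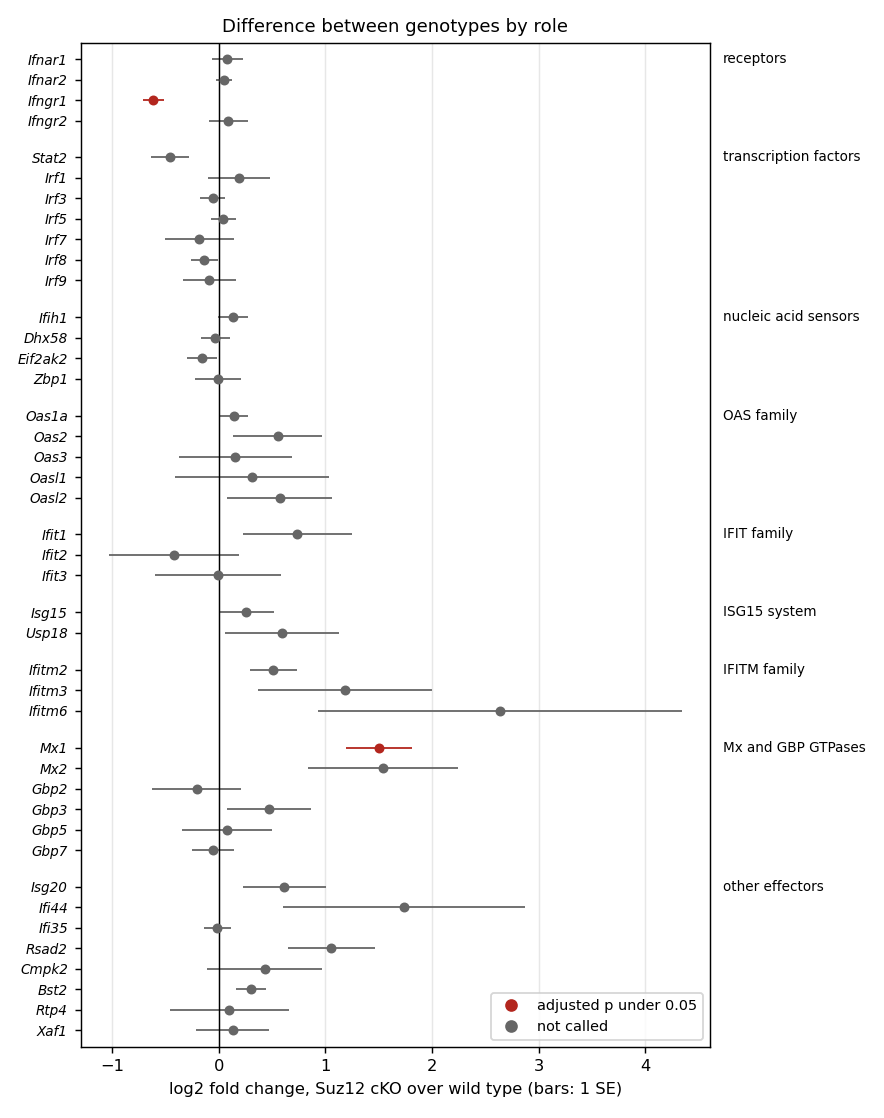
Log2 fold change of Suz12 cKO over wild type for each of the 42 interferon genes, in rows grouped by role, with bars of 1 SE; red points passed an adjusted p under 0.05. Ifngr1 (-0.62) and Mx1 (1.5) are the called genes, and Ifitm6 (2.64, SE 1.70) has the widest error.

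Promoter stretches are shown for 8 members, picked among those with a match to letters through which interferon signals are known to reach target genes. Neither called member, Mx1 or Ifngr1, is among them. The sequences come from RefSeq on GRCm38.p6, which held promoters (250 bases before to 50 after an annotated start) for 35 of the 42 members. No entry matched Mx1, Mx2, Oas2, Usp18, Zbp1, Dhx58 or Rtp4. Each stretch is 60 bases long, is written 5′ to 3′ on the strand of its gene, and ends before the start of its transcript. Capitals mark each match to the letters searched. For ISRE these were GAAA, any 2 bases and GAAA (on the other strand TTTC, any 2 bases and TTTC, both searched), and for GAS they were TTCNNNGAA, which reads the same on both strands. Matches that overlap run together, as in Isg15 with 3 matches and Gbp3 with 2.
Rsad2, ISRE, chr12:26456538-26456597, minus strand: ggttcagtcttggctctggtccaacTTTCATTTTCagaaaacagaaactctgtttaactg
Ifit1, ISRE, chr19:34640769-34640828, plus strand: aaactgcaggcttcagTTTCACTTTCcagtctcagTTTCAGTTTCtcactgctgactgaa
Ifit3, ISRE, chr19:34583365-34583424, plus strand: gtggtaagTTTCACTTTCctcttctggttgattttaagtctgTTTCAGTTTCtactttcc
Isg15, ISRE, chr4:156200856-156200915, minus strand: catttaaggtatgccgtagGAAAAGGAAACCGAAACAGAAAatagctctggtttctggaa
Gbp2, ISRE, chr3:142620579-142620638, plus strand: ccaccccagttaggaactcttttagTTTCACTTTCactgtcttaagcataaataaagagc
Gbp3, ISRE, chr3:142559977-142560036, plus strand: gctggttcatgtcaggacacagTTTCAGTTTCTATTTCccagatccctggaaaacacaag
Stat2, ISRE, chr10:128270251-128270310, plus strand: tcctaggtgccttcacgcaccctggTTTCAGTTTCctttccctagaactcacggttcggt
Irf1, GAS, chr11:53769898-53769957, plus strand: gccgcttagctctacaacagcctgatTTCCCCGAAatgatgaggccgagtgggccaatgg

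An ISRE match lay in 16 of 42 member promoters (38.1%), which belong to 16 genes, against 3.44% of all 32851 promoters of the same length. By role, each of the 4 guanylate-binding protein genes had one, as did 1 of 7 transcription factor genes (Stat2) and 0 of 4 receptor genes. A GAS match lay in 14 of 42 member promoters (33.3%), against 8.30% of all promoters. Neither motif was found in the promoter of Ifngr1. A match is a description of letters in this window and not evidence that a factor binds there.

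A single receptor chain differed between genotypes. Ifngr1 (chromosome 10, 19591949 to 19610229 in GRCm38), the chain that binds interferon gamma, was at 144, 137 and 168 CPM in the knockout libraries, while wild type had 219, 223, 234 and 242 CPM. The highest knockout library was below the lowest wild type library. The means were 150 ± 16.0 (SD, n = 3) against 230 ± 10.5 CPM (SD, n = 4), a log2 fold change of -0.62 (SE 0.0977, edgeR adjusted p = 0.00580). The call was lost within the 4 low tissue RNA libraries (log2 fold change -0.48, edgeR adjusted p = 0.0767), a fit in which the lone knockout library is assumed to vary like the others. Within the 3 high ones it was -0.66 (edgeR adjusted p = 0.0197), with a lone wild type library. Leaving out any 1 library kept the adjusted p between 0.00464 and 0.0331.

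Ifngr2, the signalling partner of Ifngr1, was at 73.6, 74.6 and 90.7 CPM in the knockout libraries, while wild type had 85.2, 50.3, 85.1 and 79.5 CPM, with wild type replicate 2 apart from the rest. It had a log2 fold change of 0.0858 (SE 0.18, edgeR adjusted p = 0.845). Ifnar2, a chain of the type I receptor, varied least among the receptor genes, at 63.4 to 65.7 CPM in the knockout and 60.7 to 64.5 CPM in wild type (log2 fold change 0.048, SE 0.0765). Ifnar1, the other chain, was at 55.4, 46.8 and 73.2 CPM in the knockout libraries, while wild type had 53.4, 53.9, 61.0 and 52.8 CPM (log2 fold change 0.0801, SE 0.15). The groups overlapped for each of these 3 genes. All 3 lie on chromosome 16, from 91372783 to 91564007.

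Of the 7 transcription factor genes, 0 were called by edgeR (1 at an unadjusted p under 0.05) or by DESeq2. Stat2, a factor of the type I complex, had the smallest p. It was at 47.2, 50.9 and 43.4 CPM in the knockout libraries, while wild type had 60.6, 48.0, 65.3 and 85.4 CPM. Wild type replicate 2 lay within the knockout range and the other 3 wild type libraries above it. This gave a log2 fold change of -0.46 (SE 0.18, edgeR adjusted p = 0.147), and without wild type replicate 2 it was -0.59 (edgeR adjusted p = 0.0242). The gene span of Stat2 overlaps that of Apof, and the sources used here do not say whether counting used strand. Irf9, the DNA-binding partner of STAT2, was at 29.6 to 40.5 CPM against 22.1 to 48.9 CPM (log2 fold change -0.0888, SE 0.25).

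The interferon regulatory factor genes known from the induction of interferon were also not called. Irf3, which acts downstream of nucleic acid sensing, was at 48.1 to 55.9 CPM in the knockout and 44.5 to 60.4 CPM in wild type (log2 fold change -0.0581, SE 0.12). Irf7, itself induced by interferon, was at 9.45, 10.2 and 12.4 CPM in the knockout libraries, while wild type had 13.6, 5.71, 12.6 and 16.7 CPM (log2 fold change -0.19, SE 0.32). Its lowest level was that of wild type replicate 2. Irf5, a factor of inflammatory macrophages, was at 96.9 to 112 against 85.4 to 117 CPM (log2 fold change 0.0422, SE 0.12). Irf8, which is needed for the myeloid lineage, was at 130 to 157 against 126 to 170 CPM (log2 fold change -0.14, SE 0.13). The groups overlapped for each of these genes.

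Irf1, a factor of the interferon gamma response, was at 61.1, 64.2 and 27.5 CPM in the knockout libraries, while wild type had 32.7, 39.9, 50.9 and 55.2 CPM. Knockout replicate 3 was the lowest of the 7 libraries and the other 2 knockout libraries were the highest. Its log2 fold change of 0.19 (SE 0.29, edgeR adjusted p = 0.768) was -0.77 within the 4 low tissue RNA libraries and 0.65 within the 3 high ones (edgeR adjusted p = 0.169 and 0.0497). With a term for tissue RNA its log2 fold change changed sign, a value given with the alternatives below. The part of tissue RNA in this gene was not tested beyond these fits.

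Per gene length, levels spanned a wide range among the members. Means over the 7 libraries, in RPKM (CPM divided by gene length in kilobases), were above 20 for 10 members, between 5 and 20 for 13 and under 5 for 19. Ifngr1 was highest at 93.1 RPKM, followed by Bst2, the tetherin gene whose protein holds budding viruses at the cell surface, at 75.9 RPKM. Ifitm2 (55.6 RPKM), Irf8 (53.5 RPKM), Irf5 (43.1 RPKM) and Ifngr2 (37.2 RPKM) came next. The ranges of neighbours in this order overlapped over the libraries. The lowest levels were those of Ifi44 (0.341 RPKM), Mx2 (0.463 RPKM) and Ifitm6 (0.691 RPKM). Response genes stood along the whole order, from Bst2 and Ifitm2 near its top to Isg15 (7.25 RPKM), Rsad2 (1.62 RPKM) and Ifit1 (1.47 RPKM). The plot of levels in each library shows the spread of the receptor and response genes.

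**Figure D2:**
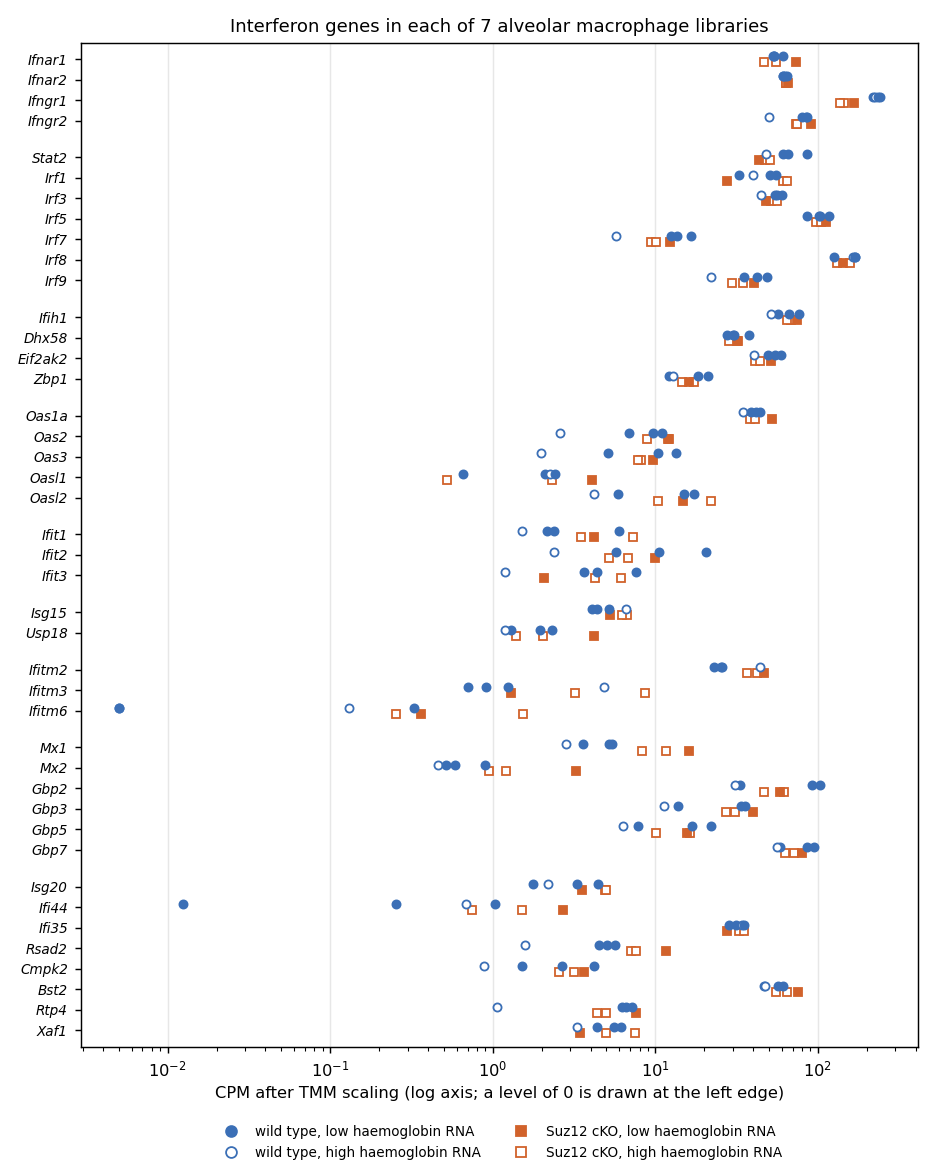
Level of each of the 42 interferon genes in each of the 7 libraries, in CPM on a log axis, with genes in rows by role. Circles are wild type and squares Suz12 cKO libraries, open symbols are the 3 libraries high in tissue RNA, and the 2 wild type levels of 0 (Ifitm6) coincide at the left edge.

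The Mx genes encode dynamin-like GTPases that restrict viruses, and Mx1 was the member called higher. As background, C57BL/6 mice are known to carry an Mx1 allele that makes no functional protein. Mx1 (chromosome 16, 97447035 to 97462906) was at 8.27, 11.6 and 16.2 CPM in the knockout libraries, while wild type had 3.57, 2.84, 5.40 and 5.15 CPM. Each knockout library was above each wild type library, and the highest level was that of knockout replicate 3, which is low in tissue RNA. The means were 12.0 ± 3.97 (SD, n = 3) against 4.24 ± 1.24 CPM (SD, n = 4), a log2 fold change of 1.5 (SE 0.31, edgeR adjusted p = 0.0180). It was 1.77 within the 4 low tissue RNA libraries and 1.81 within the 3 high ones (edgeR adjusted p = 0.0225 and 0.0219). The call was lost without knockout replicate 2 or 3 or wild type replicate 1, with log2 fold changes of 1.53, 1.21 and 1.43 (edgeR adjusted p = 0.0618, 0.0719 and 0.0540). Mx2, its neighbour at 97536081 to 97560901, was at 1.20, 0.944 and 3.25 CPM in the knockout libraries, while wild type had 0.585, 0.459, 0.903 and 0.515 CPM. The lowest knockout level was just above the highest wild type level, and the log2 fold change of 1.54 (SE 0.70, edgeR adjusted p = 0.219) was not called.

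Rsad2, which encodes the antiviral enzyme viperin, was the third member with the knockout above wild type throughout. It was at 7.05, 7.58 and 11.6 CPM in the knockout libraries, while wild type had 5.02, 1.58, 5.69 and 4.52 CPM. Among wild type libraries, replicate 2 was well below the rest. This gave a log2 fold change of 1.06 (SE 0.41, edgeR adjusted p = 0.151). With a term for tissue RNA it was 1.66 (edgeR adjusted p = 0.0103), and within the 4 low tissue RNA libraries 1.17 (edgeR adjusted p = 0.0693). Cmpk2, a nucleotide kinase gene beside Rsad2 on chromosome 12, was at 2.56 to 3.64 against 0.886 to 4.21 CPM and was not called (log2 fold change 0.43, SE 0.54). The plot of 6 members by genotype shows Mx1, Mx2 and Rsad2 beside Ifngr1, Stat2 and Gbp2.

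**Figure D3:**
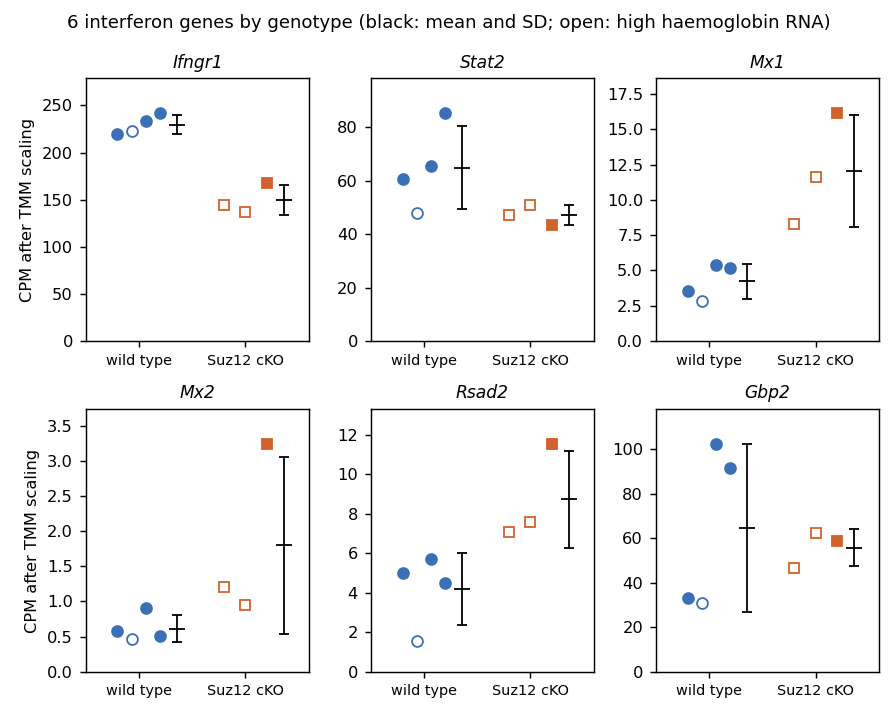
CPM of Ifngr1, Stat2, Mx1, Mx2, Rsad2 and Gbp2 in each library by genotype, with black marks for the mean and SD of each group and open symbols for the libraries high in tissue RNA. Ifngr1, Mx1, Mx2 and Rsad2 separate the genotypes, while Gbp2 runs from 31.1 to 103 CPM among wild type libraries.

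Guanylate-binding proteins are GTPases that attack the vacuoles of intracellular microbes, and 0 of 4 of their genes were called by edgeR or by DESeq2 (0 at an unadjusted p under 0.05 by edgeR). Gbp2 was at 46.6, 62.3 and 58.7 CPM in the knockout libraries, while wild type had 33.3, 31.1, 103 and 91.5 CPM. The knockout libraries lay between 2 low and 2 high wild type libraries. Gbp3 was at 27.1 to 39.7 CPM in the knockout and 13.8, 11.3, 35.6 and 33.6 CPM in wild type, and Gbp5 at 10.1 to 16.3 against 7.87, 6.29, 22.1 and 16.8 CPM. Gbp7 was at 63.1 to 79.5 against 58.1, 56.5, 95.3 and 86.1 CPM. In all 4 genes, which lie on chromosome 3 between 142496934 and 142638008, wild type replicates 1 and 2 were the lowest of the 7 libraries. Gbp2, Gbp3, Gbp5 and Gbp7 resemble each other in sequence, and how reads matching several genes were counted is not stated, so their levels are uncertain.

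Nucleic acid sensor genes were also not called, 0 of 4 by edgeR or by DESeq2 (0 at an unadjusted p under 0.05 by edgeR). Ifih1, which encodes the RNA sensor MDA5, was at 64.5 to 74.0 CPM in the knockout and 51.3 to 76.7 CPM in wild type (log2 fold change 0.13, SE 0.14). Dhx58, the gene of its regulator LGP2, was at 28.2 to 32.5 against 27.5 to 37.9 CPM (log2 fold change -0.0323, SE 0.13). Eif2ak2, the gene of the RNA-activated kinase PKR, was at 41.1 to 51.8 against 40.7 to 59.0 CPM (log2 fold change -0.16, SE 0.14). The groups overlapped for these genes and for Zbp1, a sensor gene linked to necroptosis, at 14.6 to 17.2 against 12.2 to 21.0 CPM (log2 fold change -0.0115, SE 0.22).

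The OAS genes encode enzymes that make the signal activating RNase L, or relatives of them. Of the 5, 0 were called by edgeR or by DESeq2 (0 at an unadjusted p under 0.05 by edgeR), and all 5 log2 fold changes were above 0. Oas1a was at 38.1, 41.0 and 52.1 CPM in the knockout libraries, while wild type had 44.3, 34.7, 41.6 and 38.6 CPM (log2 fold change 0.14, SE 0.14). Oas2 was at 8.87, 12.1 and 12.0 CPM in the knockout libraries, while wild type had 6.85, 2.59, 9.62 and 11 CPM (log2 fold change 0.55, SE 0.42). Oasl2 was at 10.4, 22.2 and 14.8 CPM in the knockout libraries, while wild type had 5.88, 4.18, 15.1 and 17.4 CPM (log2 fold change 0.57, SE 0.49). Wild type replicate 2 was the lowest of the 7 libraries for Oas1a, Oas2, Oas3 and Oasl2. Oas3 and Oasl1 had log2 fold changes of 0.15 and 0.31 (SE 0.53 and 0.72).

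The IFIT genes, whose proteins bind viral RNA, went in different directions, and 0 of 3 were called by edgeR or by DESeq2 (0 at an unadjusted p under 0.05 by edgeR). Ifit1 was at 3.49, 7.34 and 4.23 CPM in the knockout libraries, while wild type had 2.39, 1.51, 5.98 and 2.16 CPM (log2 fold change 0.74, SE 0.51). Ifit2 was at 5.18 to 10.0 against 5.74, 2.40, 20.6 and 10.5 CPM (log2 fold change -0.42, SE 0.61). Ifit3 was at 4.28, 6.15 and 2.07 CPM in the knockout libraries, while wild type had 4.36, 1.18, 7.61 and 3.63 CPM (log2 fold change -0.0103, SE 0.59). Wild type replicate 3 was the highest wild type library for each of these genes and wild type replicate 2 the lowest. Ifit1 overlaps the span of Ifit1bl1, and Ifit3 has a close copy in Ifit3b, so their counts are uncertain.

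Isg15, a ubiquitin-like protein gene, ran against that order. It was at 6.69, 6.20 and 5.25 CPM in the knockout libraries, while wild type had 4.37, 6.65, 4.05 and 5.18 CPM (log2 fold change 0.26, SE 0.26). Here the highest wild type library was replicate 2. Usp18, the gene of the protease that removes ISG15 and dampens type I signalling, was at 1.39, 2.03 and 4.20 against 1.20 to 2.31 CPM (log2 fold change 0.59, SE 0.53). Neither was called.

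The IFITM genes, whose proteins block virus entry at membranes, were not called. Ifitm2 was at 36.6, 42.4 and 46.9 CPM in the knockout libraries, while wild type had 25.4, 43.9, 22.9 and 25.6 CPM, and wild type replicate 2 alone reached the knockout range. It had a log2 fold change of 0.51 (SE 0.22, edgeR adjusted p = 0.198). It was 0.76 without wild type replicate 2, 0.91 within the 4 low tissue RNA libraries and -0.15 within the 3 high ones (edgeR adjusted p = 0.00525, 0.0179 and 0.689). Ifitm3 was at 3.22, 8.59 and 1.29 CPM in the knockout libraries, while wild type had 0.909, 4.84, 1.24 and 0.701 CPM (log2 fold change 1.18, SE 0.81). Its 3 highest libraries were those high in tissue RNA, in which endothelial markers (5 genes) summed to 4.21, 6.76 and 13.7 CPM, against 0.272 to 0.965 CPM in the others. Ifitm6 was at 0.252, 1.54 and 0.364 CPM in the knockout libraries, while wild type had 0, 0.131, 0 and 0.330 CPM (log2 fold change 2.64, SE 1.70). The part of other cells in these values was not tested.

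Of the 8 other effector genes, 0 were called by edgeR or by DESeq2, and Rsad2 alone had an unadjusted p under 0.05 by edgeR. Bst2 was at 55.7, 64.5 and 75.9 CPM in the knockout libraries, while wild type had 46.9, 47.1, 57.1 and 61.4 CPM (log2 fold change 0.30, SE 0.14, edgeR adjusted p = 0.233). Bst2 is also 1 of 6 listed markers of plasmacytoid dendritic cells, 0 of which were called by edgeR (1, Tcf4, at an unadjusted p under 0.05). With Bst2 included, they summed to 106 to 111 CPM in the knockout and 70.2 to 89.8 CPM in wild type. Bst2 itself was the larger part of each sum, so the sums are no separate measure of such cells. Among them Tcf4 was at 48.8, 42.7 and 34.0 CPM in the knockout against 22.2 to 34.0 CPM (edgeR adjusted p = 0.0567), Siglech was at most 0.574 CPM and Klk1 had no count in any library. The part of such cells in the level of Bst2 was not tested. Ifi35 was at 27.7 to 35.0 against 28.4 to 35.3 CPM (log2 fold change -0.0146, SE 0.13). Rtp4, the gene of a receptor transporter induced by interferon, was at 4.37, 4.98 and 7.63 CPM in the knockout libraries, while wild type had 6.27, 1.07, 6.61 and 7.2 CPM (log2 fold change 0.0989, SE 0.55). The lowest was again wild type replicate 2. Isg20, an RNA exonuclease gene, Ifi44 and Xaf1 had log2 fold changes of 0.61, 1.74 and 0.13 (SE 0.39, 1.14 and 0.34).

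The members varied among libraries of 1 group as well as between groups. The highest wild type library was over 2 times the lowest for 18 of the 41 members with a count in each wild type library. Wild type replicate 2 was the lowest of the 7 libraries for 24 of 42 members (57.1%), against 14.3% of all genes tested, and the highest for 0. Knockout replicate 3 was the highest for 14 members (33.3%), against 17.9% of all genes tested, and wild type replicate 3 for 11 (26.2%), against 10.2%. As the median over members of the log2 difference from each gene's own mean, wild type replicates 1 to 4 stood at -0.26, -0.34, 0.18 and 0.18 and knockout replicates 1 to 3 at 0.02, 0.13 and 0.23. Wild type replicates 3 and 4 were within the range of the knockout libraries and wild type replicates 1 and 2 lower. These medians describe the libraries and were not tested.

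**Figure D4:**
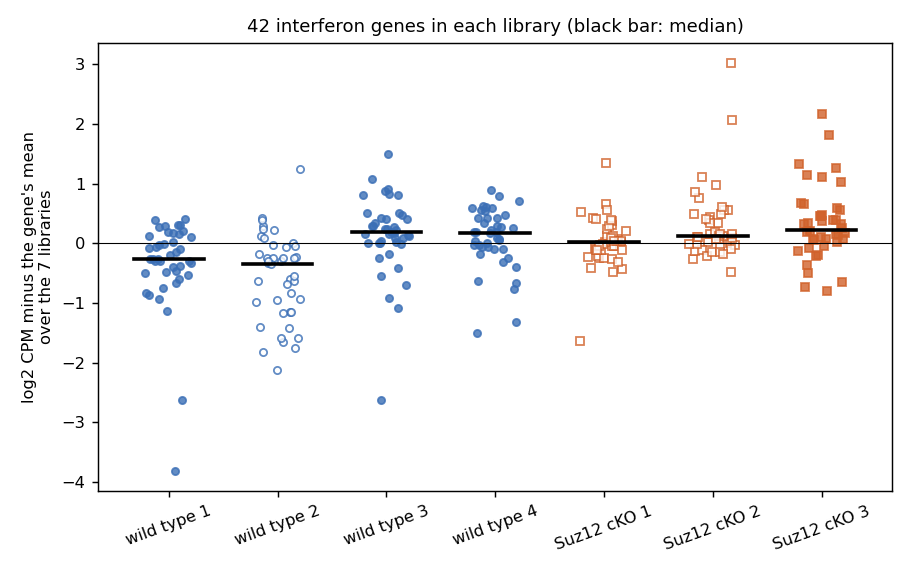
Log2 CPM of each of the 42 interferon genes minus that gene's mean over the 7 libraries, 1 point per gene and library, with black bars for medians. Wild type replicates 1 and 2 have medians of -0.26 and -0.34, and wild type replicates 3 and 4 (0.18 and 0.18) sit level with the Suz12 cKO libraries (0.02 to 0.23).

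Fits within libraries alike in tissue RNA have a single library in 1 group, so their calls also carry whatever is particular to that library, and the sets of libraries were not compared by a test. Among the 3 high tissue RNA libraries, where wild type replicate 2 is the lone wild type library and is assumed to vary like the others, 9 members were called higher (21.4%), against 4.73% of all genes tested there. They were Irf1, Rsad2, Rtp4, Mx1, Ifit3, Gbp3, Oasl2, Oas2 and Oas3, and their fold changes rest on wild type replicate 2, the lowest of the 7 libraries for 24 members. Ifngr1 was called lower, against 2.08% of all genes tested there. Within the 4 low libraries, Mx1 and Ifitm2 were called higher, against 4.08% of all genes tested there. By edgeR 0 members were called lower there, against 2.43%, and 10 members had an unadjusted p under 0.05 in either direction. The share of members with such a p was close to that of all genes tested there. Without wild type replicate 2, Mx1 and Ifitm2 were called higher and Ifngr1 and Stat2 lower, against 10.7% and 6.27% of all genes tested.

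Transcripts of the interferons themselves were almost absent. Of 21 interferon genes in the table, 18, including Ifnb1 and each of the listed Ifna genes, had no count in any library, which allows up to 0.0378 to 0.0624 CPM per library (3 counts, counting error only). Ifng had 23 counts in knockout replicate 2 and 0 in the other 6 libraries. Markers of T and NK cells, the usual makers of interferon gamma, summed to 6.79 CPM in that library and to 0.622 to 2.63 CPM in the others. Markers of B cells (34.4 CPM) and neutrophils (177 CPM) were also highest there, and the source of the Ifng counts was not tested. Ifnk had 11 counts in wild type replicate 1 and 7 in wild type replicate 3, and Ifnz had 1 count in wild type replicate 1.

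Other genes of the pathway were read from a list of 124 genes in the table, 101 of which were tested. Of these 4 were called higher and 3 lower, against 6.28% and 4.02% of all genes tested, and their median log2 fold change was 0.02. Of 14 signal transducer genes, 0 were called by edgeR (2 at an unadjusted p under 0.05), with the phosphatase gene Ptpn6 closest at 330 to 390 against 402 to 478 CPM (log2 fold change -0.30, SE 0.097, edgeR adjusted p = 0.0848). Ptpn6 was called lower by DESeq2 and, by edgeR, without wild type replicate 2 (log2 fold change -0.37, edgeR adjusted p = 0.0268). Among type I response genes 2 of 46 rose and 1 fell, and among type II response genes 1 of 22 rose and 0 fell.

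Of 17 sensing and induction genes, 1 rose and 2 fell, against 6.28% and 4.02% of all genes tested. Ikbke, the gene of a kinase that activates IRF3 and IRF7, was at 21.2, 30.6 and 39.8 CPM in the knockout libraries, while wild type had 13.3, 11.1, 15.5 and 10.6 CPM (log2 fold change 1.28, SE 0.23, edgeR adjusted p = 0.00973). Cgas, the gene of the cytosolic DNA sensor, was at 9.77, 10.1 and 7.22 CPM in the knockout libraries, while wild type had 18.2, 16.9, 20.3 and 17.7 CPM (log2 fold change -1.02, SE 0.17, edgeR adjusted p = 0.00776). Neither pair of groups overlapped, and the call of Cgas was lost within the 3 high tissue RNA libraries (log2 fold change -0.76, edgeR adjusted p = 0.113). Tlr7, the gene of an endosomal RNA sensor, was at 124, 125 and 112 CPM in the knockout libraries, while wild type had 155, 155, 205 and 174 CPM (log2 fold change -0.52, edgeR adjusted p = 0.0279). Its call was lost without any 1 of the knockout libraries or wild type replicate 3 or 4 (edgeR adjusted p = 0.0506 to 0.0882). It was also lost with a replicate block and within the low and the high tissue RNA libraries (edgeR adjusted p = 0.105, 0.0679 and 0.232). Traf3, an adaptor gene, was at 34.1 to 44.9 against 26.9 to 33.1 CPM (log2 fold change 0.41, edgeR adjusted p = 0.0764) and was called in 1 alternative, without wild type replicate 2 (log2 fold change 0.45, edgeR adjusted p = 0.0488).

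Among response genes outside the member list, Pml, the gene that organises nuclear bodies, was at 30.4, 31.4 and 30.4 CPM in the knockout libraries, while wild type had 19.2, 17.1, 18.0 and 19.0 CPM. Both groups were tight and apart (log2 fold change 0.74, SE 0.11, edgeR adjusted p = 0.00394). The call was lost within the 4 low tissue RNA libraries (log2 fold change 0.68, edgeR adjusted p = 0.0575). Helz2, a helicase gene, was at 48.3, 53.2 and 59.5 against 30.3 to 39.0 CPM (log2 fold change 0.65, edgeR adjusted p = 0.00982). Cd274, the gene of the T cell inhibitor PD-L1, was at 721, 819 and 557 CPM in the knockout libraries, while wild type had 426, 555, 490 and 423 CPM (log2 fold change 0.56, edgeR adjusted p = 0.0434). The ranges of Cd274 almost met, and its call was lost without knockout replicate 1 or 2 or wild type replicate 1, 3 or 4 (edgeR adjusted p = 0.101 to 0.161). The same held with a replicate block and within the low and the high tissue RNA libraries (edgeR adjusted p = 0.082, 0.215 and 0.0674). Pnpt1, the gene of a mitochondrial RNA exonuclease, was at 39.3, 45.9 and 43.8 CPM in the knockout libraries, while wild type had 69.7, 67.5, 66.1 and 56.0 CPM (log2 fold change -0.59, edgeR adjusted p = 0.0101). Its call was lost within the low and within the high tissue RNA libraries (log2 fold changes -0.56 and -0.66, edgeR adjusted p = 0.0978 and 0.0551). Tor3a and Slfn5 were not called by the edgeR fit over all libraries, with log2 fold changes of -0.48 and 1.08 (edgeR adjusted p = 0.0522 and 0.0683). DESeq2 called Tor3a lower and Slfn5 higher (DESeq2 adjusted p = 0.0221 and 0.0148). By edgeR, Tor3a was called without wild type replicate 2 (edgeR adjusted p = 0.00819). Slfn5 was called with a replicate block, with the tissue RNA term and within the 4 low libraries (edgeR adjusted p = 0.0358, 0.0125 and 0.0322).

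**Figure D5:**
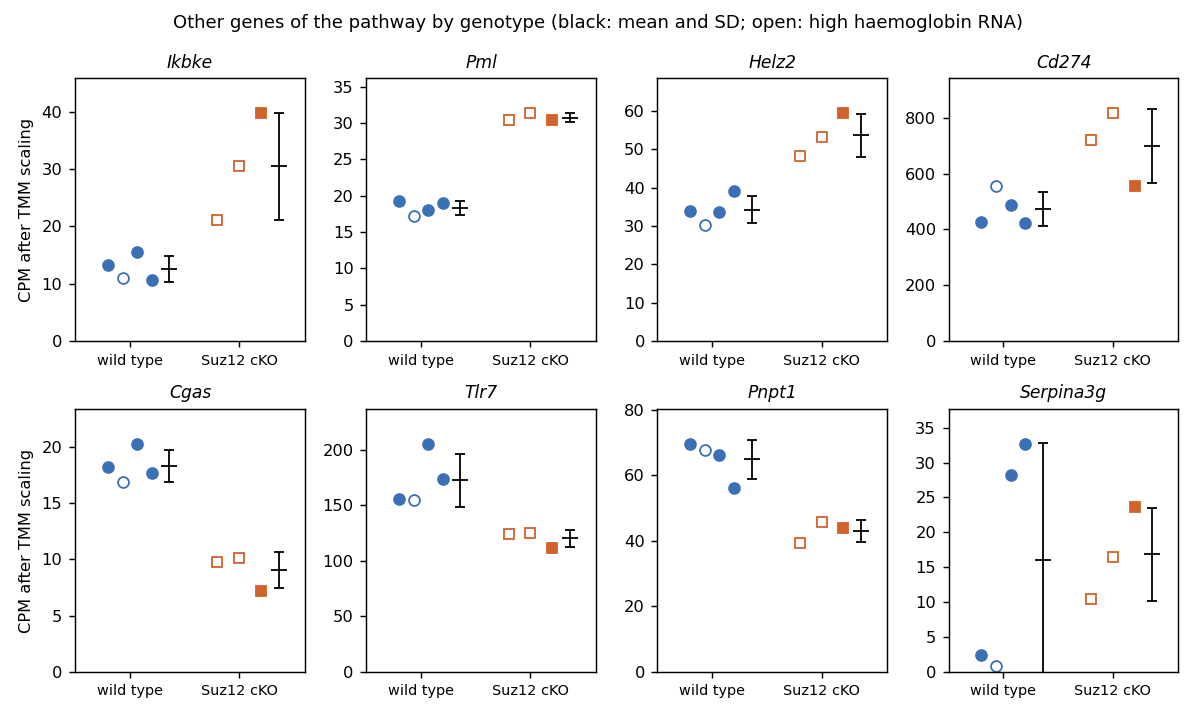
CPM of the 7 called pathway genes outside the member list, and of Serpina3g, in each library by genotype, with black marks for the mean and SD (bars end at the axis where they would pass 0) and open symbols for libraries high in tissue RNA. Ikbke, Pml, Helz2 and Cd274 are higher and Cgas, Tlr7 and Pnpt1 lower in Suz12 cKO, and Serpina3g differs most within wild type.

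Over the 7 libraries, the pathway genes most like the mean of the 27 effector members were Ifit3b, Parp14 and Serpina3g. Pearson's r between log2 CPM values was 0.887, 0.872 and 0.861, a description over libraries that share depth and tissue RNA differences. Serpina3g, a protease inhibitor gene, was at 10.4, 16.5 and 23.6 CPM in the knockout libraries, while wild type had 2.43, 0.870, 28.2 and 32.7 CPM (log2 fold change 0.0714, SE 1.0). Wild type replicates 1 and 2 were the lowest libraries and wild type replicates 3 and 4 the highest. Parp14, an ADP-ribosyltransferase gene, was at 87.0, 99.2 and 90.7 CPM in the knockout libraries, while wild type had 73.2, 74.7, 96.4 and 95.5 CPM. Its lowest libraries were again wild type replicates 1 and 2, and knockout replicate 2 was the highest.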

How the data were processed

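Whole-number counts of reads per gene were deposited for 7 libraries; per the submitters' processing notes, the authors used featureCounts on mm10. Not given in the sources used here: aligner, annotation, strandedness of counting, and the handling of multi-matching reads. Gene lengths (other values, in bases) are those of the deposited table. Each per-sample file repeats its column of the series table and was not used further.

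Symbols came from RefSeq (GRCm38.p6) by Entrez number, with 25275 of 27179 genes matched. Genes were filtered with filterByExpr (minimum count 10, minimum total 15), libraries were scaled with TMM, and genotype was tested with edgeR 4.0.16 (quasi-likelihood, R 4.3.3), adjusted by the Benjamini-Hochberg method over 14436 genes; a call is an adjusted p under 0.05. The SE is the log2 fold change divided by the square root of F. CPM use TMM-scaled totals, and log2 CPM a prior count of 2. The fit was tested on simulated data. Alternatives were DESeq2 1.42.0, DESeq2 size factors, no filter, each library left out, a replicate block, and tissue RNA as a term or as strata; libraries high in tissue RNA had over 20 CPM of haemoglobin RNA. Replicates correlated at 0.916 to 0.969 (log2 CPM, across genes). P-values set the difference between genotypes against the spread estimated between these samples. In fits with a lone library in a group, the spread of that group was not measured.

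Named were Suz12, called members, all receptors and transcription factors, in each other role the 3 highest by RPKM and the 2 smallest p, and of the wider pathway the called genes, interferons with a count, the 4 smallest uncalled p and the 3 most like the effectors; other members and genes were named after their values were seen. Members and lists were chosen with earlier results of these data known. Some results of the wider pathway are not reported here.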

Additional observations from a re-analysis of the deposited data

Results flagged for a closer look

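In 58 genes, the wild type library farthest from the other 3 was compared with the spread of the group. Chance flags about 1 of 20 groups in such a check, and 8 values were marked, each of 1 gene in 1 library. The genes share the same libraries, so the marks are not independent and this rate is no baseline for their number. Wild type replicate 2 was marked as low for Ifngr2 (50.3 CPM) and Rtp4 (1.07 CPM) and as high for Ifitm2 (43.9 CPM) and Ifitm3 (4.84 CPM). Wild type replicate 1 was low for Irf8 (126 CPM), and it held the single count of Ifnz (0.0124 CPM). Wild type replicate 3 was high for Ifnar1 (61.0 CPM), and wild type replicate 4 was low for Oasl1 (0.660 CPM).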

How the results depend on the processing

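Over 49 named and tested genes and 14 alternatives, 582 values kept direction and side of the threshold, 24 lost a call, 20 gained one and 60 changed sign, all 60 in genes that were not called; the cause was not tested. Counts: of all genes, 1393 were higher by the DESeq2 Wald test, and 585 higher and 278 lower with the replicate block; 367 and 328 were lower within the 4 libraries low and the 3 high in tissue RNA. Members higher were 2 with a tissue RNA term (4.76%), against 6.93% of all genes tested. Other pathway genes lower were 6 by DESeq2 (5.94%), against 5.87% of all genes tested. With 1 library left out, all genes higher ranged from 447 to 1515 and lower from 268 to 885, members higher from 0 to 2 and lower from 1 to 2, and other pathway genes higher from 3 to 9 and lower from 2 to 10; the highest count of each came without wild type replicate 2. Same-numbered libraries deviated with r of -0.04, 0.24 and 0.16. Knockout replicates 2 and 3 correlated best with the wild type library of their own number, and knockout replicate 1 with wild type replicate 2 (r of 0.11). These values do not settle whether the numbers mark pairs, and the main fit did not use them as pairs. With the replicate block the member calls were 1 higher (2.38%) and 1 lower (2.38%), against 4.05% and 1.93% of all genes tested.

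Log2 fold changes that changed sign were, with the replicate block, Irf7 0.0911, Irf9 0.11, Ifit2 0.0748, Ifit3 0.12, Gbp2 0.23 and Gbp7 0.064. With the tissue RNA term they were Irf1 -0.0811, Irf7 0.26, Irf9 0.22, Dhx58 0.0099, Ifit2 0.46, Ifit3 0.33, Gbp2 0.19 and Gbp7 0.11. Within the low libraries they were Irf1 -0.77 and Dhx58 0.0114. Within the high libraries they were Ifnar1 -0.0773, Stat2 0.0333, Irf3 0.27, Irf7 0.78, Irf9 0.54, Eif2ak2 0.062, Ifit2 1.32, Ifit3 2.14, Isg15 -0.0435, Ifitm2 -0.15, Gbp2 0.81, Gbp7 0.25 and Ifi35 0.0040. With DESeq2 size factors they were Ifit3 0.0073 and Ifi35 0.0014, and with the DESeq2 Wald test Ifit3 0.0074 and Ifi35 0.0013. Ranges with 1 library left out were Ifnar1 -0.13 to 0.22, Ifngr2 -0.0766 to 0.15, Irf1 -0.013 to 0.47, Irf3 -0.15 to 0.0011, Irf5 -0.0332 to 0.11, Irf9 -0.28 to 0.0617, Dhx58 -0.10 to 0.0692, Oas1a -0.0235 to 0.21, Ifit2 -0.76 to 0.22, Ifit3 -0.40 to 0.44, Gbp2 -0.46 to 0.0911, Gbp7 -0.18 to 0.08, Ifi35 -0.0883 to 0.0617, Rtp4 -0.25 to 0.27 and Serpina3g -0.34 to 0.67.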

Other observations

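The chemokine genes Cxcl9 and Cxcl10, neighbours on chromosome 5 and both known targets of interferon gamma, were high in different libraries; they were chosen after their values were seen. Cxcl9 was at 6.60, 7.86 and 3.67 CPM in the knockout libraries, while wild type had 3.30, 4.51, 36.5 and 46.8 CPM, so that wild type replicates 3 and 4 were the highest (log2 fold change -1.91, SE 0.89, edgeR adjusted p = 0.231). Cxcl10 was at 69.8, 43.0 and 2.45 CPM in the knockout libraries, while wild type had 2.59, 15.6, 4.48 and 2.80 CPM, so that the 3 libraries high in tissue RNA were the highest (log2 fold change 2.59, SE 0.96, edgeR adjusted p = 0.134). The GTPase genes Tgtp1 and Ifi47, also chosen after their values were seen, were highest in wild type replicates 3 and 4, at 11 and 9.79 CPM for Tgtp1 and 30.4 and 27.8 CPM for Ifi47.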
